A study of Homo sapiens with 2 samples.

Results

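The transcripts of 10 S100 genes were followed in PC9, an established cell line from a human adenocarcinoma of the lung that carries a mutant EGFR. Cells were grouped by the single guide RNA (sgRNA) captured in each and by culture state. The genes were S100P, S100A2, S100A4, S100A6, S100A8, S100A9, S100A10, S100A11, S100A14 and S100A16, 10 of the 21 S100 genes and of the 36637 features in the deposited matrix. They were chosen by name with earlier results of these cells known, namely a lower S100P with ATF4 sgRNAs and a higher S100A11 with MYC sgRNAs. The values in those 2 contrasts are therefore given as a description, without a test.

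S100 proteins are small calcium sensors of the EF-hand type that usually act as dimers. On binding calcium they open a surface that grips partner proteins, among them annexins, the ERM protein ezrin and the scaffold IQGAP1. Epithelial tumours often carry several of them, and secreted S100 proteins can bind the receptors AGER and TLR4. All genes named S100A lie in 1 cluster on chromosome 1, whereas S100P lies alone on chromosome 4.

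The study grew 1 pooled culture of PC9 cells transduced with lentivirus carrying sgRNAs against MYC, PGAM1, CTNNB1, JUN, ATF4 or CTCF, or 1 of 4 non-targeting sgRNAs, which served as controls. All groups shared the cell line, the spinfection with 8 ug/ml polybrene at an infection rate near 40%, and the selection with 1 ug/ml puromycin. The labels speak both of knockout and of dCas9 with knockdown, and give day 7 for a first harvest and day 8 for the experiment, so neither the kind of perturbation nor the day is settled. Of 10847 barcodes, 10142 cells were kept (median 12239.5 gene UMIs, unique molecular identifiers), and 5556 cells (54.8%) were assigned to a single sgRNA: 700 to controls, 1552 to CTNNB1, 1182 to CTCF, 859 to ATF4, 836 to JUN, 333 to PGAM1 and 94 to MYC. The unit of comparison was the summed count of 1 sgRNA, taken for the 34 sgRNAs that had 20 cells or more, with sums from 267726 to 6430143 UMIs: 4 controls, 2 of MYC, 4 of PGAM1 and 6 each of the other targets. Levels are CPM, a gene's count scaled to the total gene count of the sgRNA or group. They come from 3' counting, 1 count per captured molecule whatever the transcript's length. All sgRNAs came from 1 culture, so errors and p-values describe only the spread between sgRNAs.

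With the named sgRNAs, the targeted transcript was lower for PGAM1 (log2 fold change -1.66), CTNNB1 (-0.90) and ATF4 (-0.51), each with an edgeR adjusted p under the threshold of 0.05 (8.5e-24, 9.97e-05 and 6.6e-07). JUN (-0.14) and CTCF (-0.18) did not pass (edgeR adjusted p = 1 and 0.881). The MYC transcript stood at 141.9 and 86.7 CPM in the sgRNAs labelled MYC against 69.8 ± 4.52 CPM (SD, n = 4) in controls, higher and not past the threshold (log2 0.62, edgeR adjusted p = 0.484), so every direction given for MYC rests on a label that its own transcript did not follow. The epithelial line markers KRT7 (2448 CPM), KRT18 (4435 CPM) and EPCAM (268 CPM) were present. Of the markers of cells that normally carry S100A8 and S100A9, the myeloid genes FCN1 and TYROBP had 0 counts and PTPRC had 29 counts in all cells, and the keratinocyte genes KRT5 and KRT1 had 0. The list of 7 keratinocyte genes summed to between 181 and 334 CPM per sgRNA, nearly all of it KRT10 (255 CPM over all cells). The whole list of 7 myeloid markers summed to between 0.893 and 8.25 CPM per sgRNA. A group of 274 cells (cluster 13) and a smaller one of 67 cells (cluster 17), both led by FABP5, NPW and GTSF1, stood apart from the rest, and only 12.9% of them held an assigned sgRNA. Another such cluster, of 104 cells and led by SYCE3 and PRSS2 (cluster 15), held 29, 20 and 11 cells of CTCF sgRNAs 2, 3 and 4. Results that rest on these 445 cells are given with and without them.

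The promoter letters of the S100 genes at the head of the 2 choosing contrasts are shown first, since ATF4 and MYC are factors that bind DNA. Each line holds the 250 bases before the transcription start, from RefSeq on GRCh38.p14, written 5' to 3' on the strand of the gene. Capitals mark a match, on either strand, to TGATGNAA, the composite element that ATF4 forms with C/EBP proteins, to CACGTG, the E-box that MYC binds, or to TGANTCA, the AP-1 site.
S100P, chr4:6693628-6693877, plus strand: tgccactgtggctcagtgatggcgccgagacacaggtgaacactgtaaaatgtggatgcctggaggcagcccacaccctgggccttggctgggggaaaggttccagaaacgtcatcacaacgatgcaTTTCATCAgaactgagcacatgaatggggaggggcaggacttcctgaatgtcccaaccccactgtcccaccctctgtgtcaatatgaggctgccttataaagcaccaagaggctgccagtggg
S100A11, chr1:152037005-152037254, minus strand: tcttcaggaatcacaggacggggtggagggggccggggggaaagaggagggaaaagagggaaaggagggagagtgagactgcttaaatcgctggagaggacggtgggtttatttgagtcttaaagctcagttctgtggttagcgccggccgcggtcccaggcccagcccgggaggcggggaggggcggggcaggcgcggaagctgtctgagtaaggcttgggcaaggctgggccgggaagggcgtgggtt
The S100P window held 1 match, to the ATF4 element on the opposite strand, whose first base lay 123 bases before the start. Of all 35116 promoter windows of that length, 3.14% held this motif, 6.34% the E-box and 6.57% the AP-1 site. The S100A11 window held none of the 3. Among the windows of all 10 genes, the only other match was an AP-1 motif 52 bases before 1 of the 2 starts of S100A2. A match describes letters and is not a bound site.

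**Figure D1:**
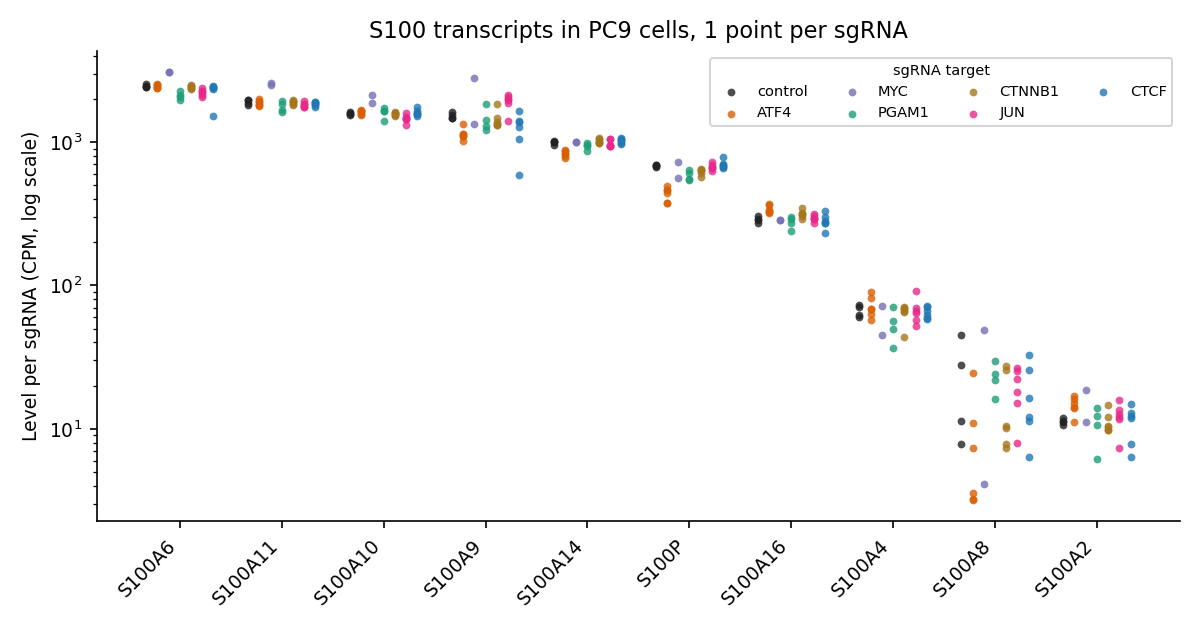
Level of each S100 transcript per sgRNA (vertical axis, CPM on a log scale), 1 point per sgRNA with assigned cells, coloured by target. From S100A6 to S100A2 the points span from 3074 CPM down to 3.18 CPM (S100A8 with an ATF4 sgRNA), and S100A8 varies most between sgRNAs of a group.

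S100 transcripts formed a steep ladder of levels in these cells. S100A6, a partner of the calcyclin-binding protein CACYBP, was the most abundant at 2384 CPM over all cells. S100A11, which binds annexin A1 (ENSG00000163191, GRCh38.p14 chromosome 1, 152032506 to 152037004), followed at 1879.6 CPM. S100A10 (ENSG00000197747), the subunit that joins annexin A2 in a tetramer, stood at 1594 CPM, and S100A9, the larger chain of calprotectin, at 1419 CPM. S100A14, an epithelial membrane-associated member, reached 970.0 CPM, S100P (ENSG00000163993, chromosome 4, 6693878 to 6697170) 604 CPM and S100A16 304 CPM. The remaining 3 were far lower, S100A4 (a myosin-binding member tied to motility) at 73.7 CPM, S100A8 (the other chain of calprotectin) at 19.0 CPM and S100A2 at 13.4 CPM. Neighbours in this order did not overlap among the 4 control sgRNAs, except S100A10 with S100A9 (1544 to 1629.7 CPM and 1472 to 1633 CPM) and S100A8 with S100A2 (7.86 to 45.3 CPM and 10.6 to 11.9 CPM).

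Of the 11 other S100 genes, S100A13 (246 CPM) and S100A3 (3.81 CPM) were abundant enough to be tested. S100A5 and S100A12 stayed at 3.07 and 2.21 CPM and S100A1 at 0.786 CPM. S100Z and S100A7 had 3 and 2 counts. S100B, S100G, S100A7A and S100A7L2 had 0, for which the limit was set at 3 counts of the total, or 0.0224 CPM. RefSeq lists 10 pseudogenes of S100A11, none of them a feature of the matrix, so its count may hold reads that pseudogenes share. The RefSeq spans of S100A4 and S100A5 overlap on the same strand, and reads there could be credited to either gene.

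Cells differed in how evenly they shared these transcripts. In the tenth of cells with most counts lay 20.5% of the S100A11 counts and 20.6% of the S100A6 counts, but 41.1% of the S100A9 counts. For S100A8 a UMI was seen in 7.86% of cells, and 198 cells with 3 or more S100A8 UMIs held 71.9% of its 2544 counts. Those 198 cells carried 7042 CPM of S100A9, the 599 cells with 1 or 2 S100A8 UMIs carried 2955 CPM and the 9345 cells with none carried 1169.5 CPM. The acute-phase gene SAA1 was at 543, 127 and 32.7 CPM in the same order, while S100P differed less, at 774, 638 and 598 CPM. Median depth was 13486.5, 13507 and 12150 UMIs in these cells. After every cell was thinned to 5000 UMIs, which left out 233 shallower cells, S100A9 still ran from 0 UMIs at the 10th percentile over a median of 4 to 18 at the 90th, against 5, 9 and 15 for S100A11.

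The comparison of ATF4 sgRNAs with controls, which chose S100P, held the largest change of an abundant S100 transcript. ATF4 is a bZIP protein that switches on genes when cells are short of amino acids or under protein-folding stress. S100P stood at 671, 687, 685 and 692 CPM with the 4 control sgRNAs. With the 6 ATF4 sgRNAs it ranged from 377 over a median of 451 to 492 CPM. The groups did not overlap, and the fitted log2 fold change was -0.65 ± 0.056 (SE), a 1.57-fold lower level. S100A14 ranged from 778 over 836 to 874 CPM with ATF4 sgRNAs, below the control values of 948, 1008, 994 and 1016 CPM (log2 -0.28). S100A9 ranged from 1016 over 1121 to 1336 CPM, below the 1472, 1475, 1633 and 1552 CPM of controls (log2 -0.45). In the other direction, S100A16 (control values 284, 291, 303 and 271 CPM) lay between 320.1 and 367 CPM in all 6 ATF4 sgRNAs (log2 0.20). The scarce S100A2 was at 14.6 ± 2.01 CPM (SD, n = 6) against 11.2 ± 0.552 CPM (n = 4), a log2 fold change of 0.37 with overlapping groups. S100A8 had a log2 fold change of -1.003 at 8.8 ± 8.25 CPM (SD, n = 6) against 23.1 ± 17.2 CPM (n = 4), and its groups overlapped. S100A6, S100A10, S100A11 and S100A4 lay within 0.05 of 0 on the log2 scale. In all, 3 of 10 S100 genes had every ATF4 sgRNA below all controls, as did 1.73% of the 11570 genes tested, and 1 had every one above, as did 2.38%. The median log2 fold change was -0.04 for the 10 genes and 0.00 for all genes. For the whole table, 1.75% of genes were called by edgeR at an adjusted p under 0.05.

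**Figure D2:**
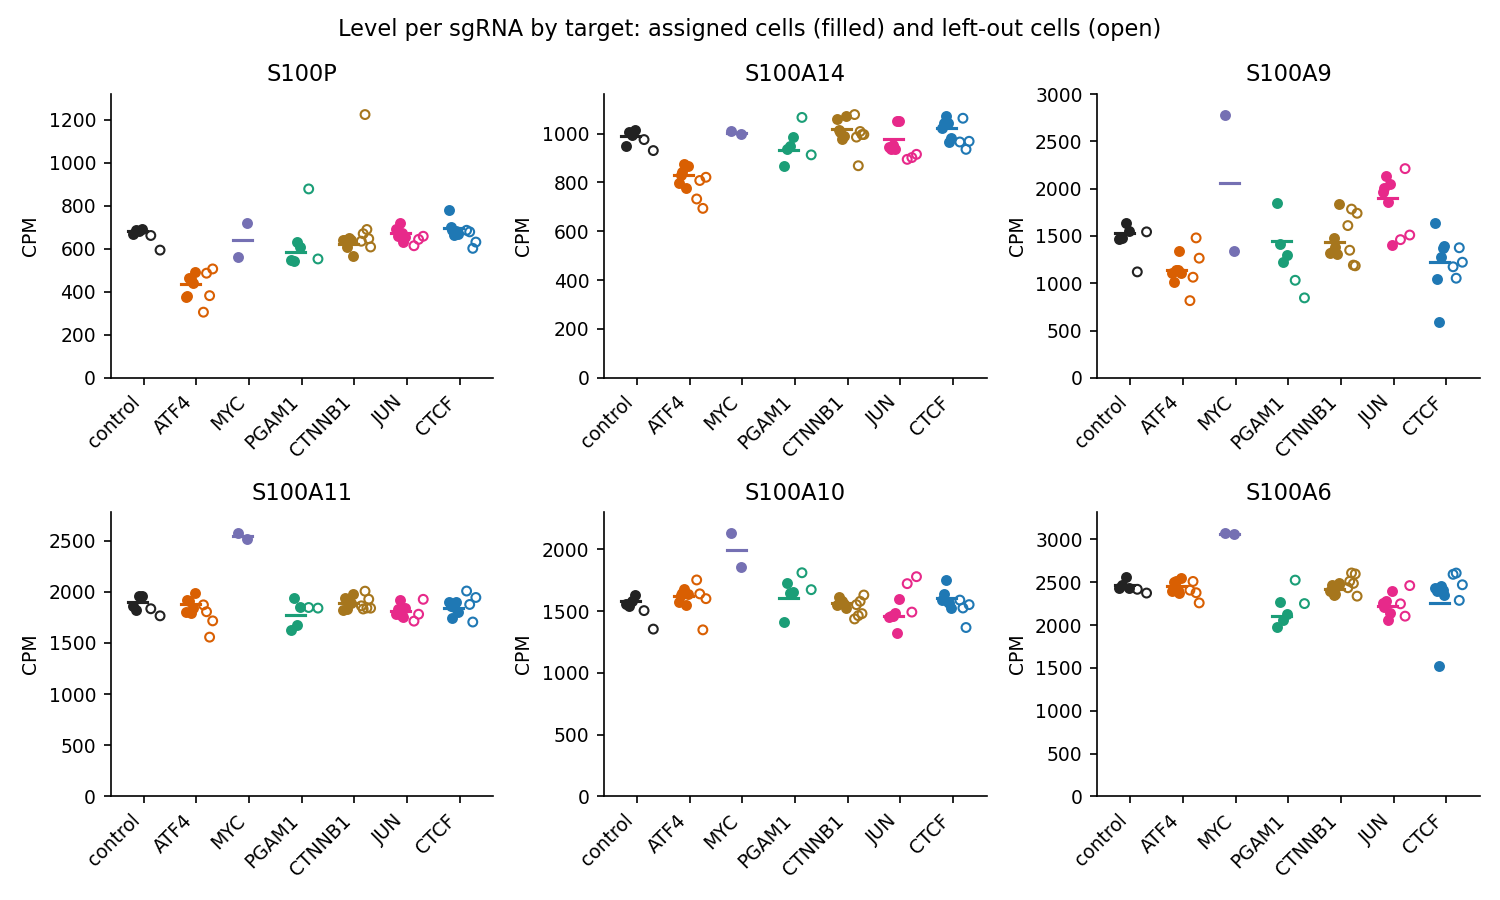
Level per sgRNA (CPM, axis from 0) of 6 S100 transcripts by sgRNA target; filled points are sgRNAs summed over assigned cells, with a bar at their mean, and open points are sgRNAs summed over cells that the assignment left out. S100P is lower with ATF4 in both kinds of cell (377 to 492 and 306 to 507 CPM), and S100A11 is highest with the 2 MYC sgRNAs (2515 and 2574 CPM).

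Cells that the assignment rule had left out gave a separate reading of S100P. These were cells whose leading sgRNA had 2 to 4 UMIs and at least 80% of the sgRNA UMIs of the cell, from the same culture. They gave 4 ATF4 and 2 control sgRNAs with at least 20 cells. S100P was at 306, 487, 382 and 507 CPM with ATF4 sgRNAs 2, 4, 5 and 6, and at 662 and 594 CPM with control sgRNAs 2 and 3, with no overlap. The log2 fold change was -0.63 ± 0.15 (SE), lower in 4 of 4 ATF4 sgRNAs, and it did not pass over all genes (edgeR adjusted p = 0.0571). S100A14 likewise lay lower, at 732, 808, 694 and 821 CPM against 975.1 and 930.2 CPM (log2 -0.35 ± 0.093, edgeR adjusted p = 0.124). S100A9 overlapped, from 816 to 1479 CPM against 1120 and 1543 CPM (log2 -0.23, edgeR adjusted p = 0.838). S100A16, which was higher with ATF4 sgRNAs in assigned cells, overlapped here too, from 279 to 383 CPM against 309 and 332 CPM. None of the 10 genes was called here, where edgeR called 0.11% of 7270 genes and 3 of the 10 had an unadjusted p under 0.05, against 6.91% of all genes. S100A4 was fitted higher with each of the 5 targets than with these 2 controls, by log2 values from 0.56 (PGAM1) to 1.17 (JUN), and did not pass in any (edgeR adjusted p from 0.267 to 0.998). In these cells edgeR called 0.124% of genes for PGAM1 and 0.0% for CTNNB1, JUN and CTCF, and none of the 10, of which 3, 1, 2 and 1 had an unadjusted p under 0.05 (6.04%, 4.28%, 5.3% and 4.7% of all genes). Over 14 alternatives the log2 fold change of S100P with ATF4 ran from -0.75 to -0.35. The value of -0.35, with mitochondrial UMIs capped at 10%, rested on 1 ATF4 and 1 control sgRNA. Leaving out ATF4 sgRNA 6 gave an edgeR adjusted p of 0.0159, and leaving out ATF4 sgRNA 2 or 5 gave 0.413 or 0.122. Leaving out 1 of the 2 controls gave 0.663 (sgRNA 2 dropped) or 0.2 (sgRNA 3 dropped).

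The assigned cells from the contrast that chose S100P were then split by culture state as a description, not as separate support. In each of the 10 clusters with at least 20 cells of both groups, S100P was lower with ATF4 sgRNAs than with controls, by log2 ratios from -0.79 to -0.33 (median -0.57). In cluster 1 it was 432 CPM (exact Poisson 95% interval 403 to 463) against 734 CPM (694 to 776). In cluster 9, the state led by hypoxia genes and the one with most S100P, it was 693 CPM (616 to 777) against 933 CPM (842 to 1033). These intervals cover counting error only. S100A14 was lower in 9 of 10 such clusters and S100A9 in 8 of 10, whereas S100A6 was lower in 5 and higher in 5. The share of G1-scored cells was 52.6% with ATF4 sgRNAs and 56.3% with controls.

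**Figure D3:**
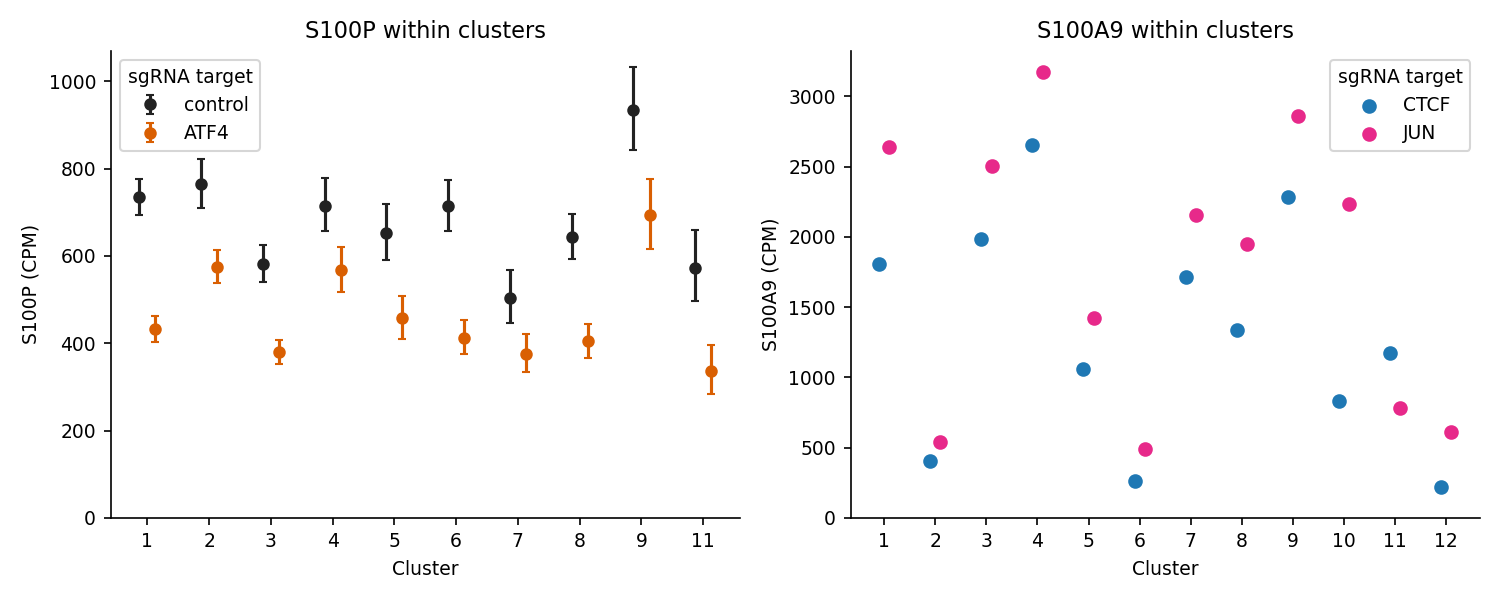
Left, S100P (CPM) in cells with control and ATF4 sgRNAs in each of 10 clusters, with exact Poisson 95% intervals; right, S100A9 (CPM) in cells with CTCF and JUN sgRNAs in each of 12 clusters, pooled over sgRNAs. S100P is lower with ATF4 in 10 of 10 clusters, and S100A9 is higher with JUN in 11 of 12.

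With sgRNAs labelled MYC, a transcription factor of growth, S100A11 stood at 2574 and 2515 CPM against 1865, 1826, 1955 and 1956 CPM in controls, without overlap (log2 0.40 ± 0.064 SE). S100A10 was at 2133 and 1861 CPM against 1557, 1544, 1583 and 1629.7 CPM (log2 0.31), and S100A6 at 3074 and 3062 CPM against 2433, 2466, 2556 and 2435 CPM (log2 0.29). These 3, the most abundant S100 transcripts, were the only ones of the 10 with both MYC sgRNAs above all controls. Across all genes 11.6% were so placed, and 0.277% were called by edgeR. S100A14 (log2 0.00) and S100A16 (-0.03) lay near the controls. S100P (log2 -0.08) gave 564 CPM with MYC sgRNA 2 and 720 CPM with MYC sgRNA 4, on either side of the controls (671 to 692 CPM). S100A9 gave 2783 CPM with MYC sgRNA 2 and 1341 CPM with MYC sgRNA 4, also on either side of the controls. The median was 0.19 for the 10 genes and -0.04 for all genes. MYC sgRNAs 1 and 3, with 10 and 16 cells, stayed outside the comparison, and their S100A11 levels were 2356 CPM (exact Poisson 95% interval 2075 to 2665) and 2621 CPM (2391 to 2868). Cells labelled MYC were shallower (median 10275.5 gene UMIs against 12110.5) and more often in cluster 4 (15.96% against 9.14%), a state with 2528 CPM of S100A11. Their part in the result was not tested. Within the 4 clusters with at least 10 cells of both groups, S100A11 was higher with MYC sgRNAs in all 4, by log2 ratios from 0.30 to 0.48. These were assigned cells, as in the choosing contrast, and give no separate support.

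No MYC sgRNA had 20 cells among those left out by the assignment. Summed over the 39 such cells, S100A11 had 1001 UMIs, or 2249 CPM (exact Poisson 95% interval 2112 to 2393), against 1869.8 CPM (1798 to 1944) in 112 control cells. The pooled log2 ratio was 0.27, and it was 0.15 without MYC sgRNA 2 and 0.46 without MYC sgRNA 4. S100A10 was at 1764 CPM (1643 to 1892) against 1460.2 CPM (1397 to 1526). With a minimum of 10 cells, a setting chosen after the cell numbers were seen, 2 MYC and 4 control sgRNAs could be tested. S100A11 was at 2756 and 1732 CPM with MYC sgRNAs 2 and 4, above and below the control values of 2015, 1834, 1764 and 2042 CPM. It did not pass there (log2 0.13 ± 0.12, edgeR adjusted p = 0.835). None of the 10 genes was called or had an unadjusted p under 0.05, where 0.0516% of 5809 genes were called. Of the 2 MYC sgRNAs with at least 10 left-out cells, only sgRNA 2 thus lay above the controls. MYC sgRNAs 1 and 3, with 8 and 5 left-out cells, entered only the pooled sum.

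**Figure D4:**
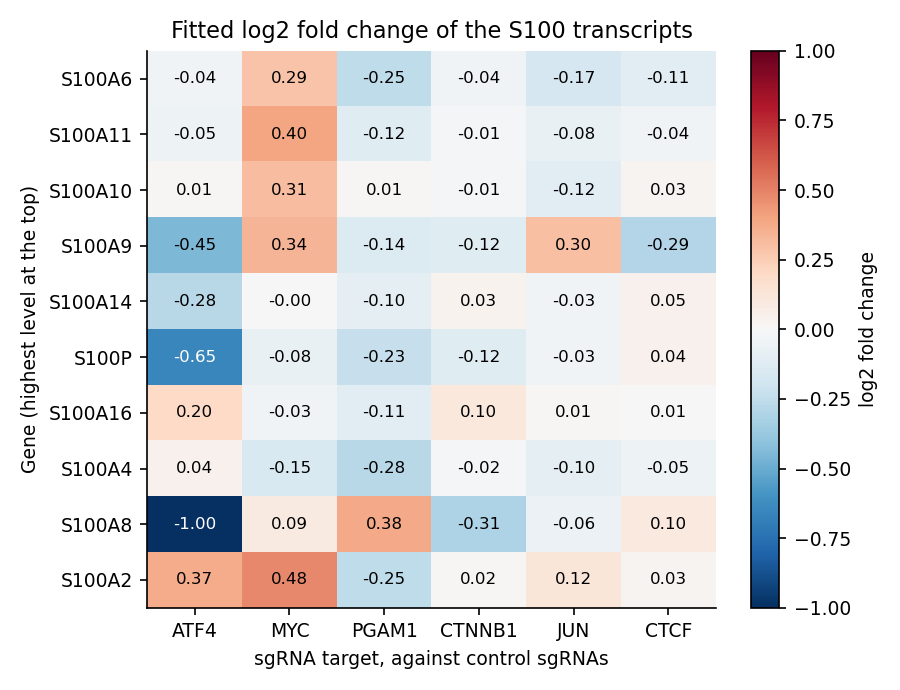
Fitted log2 fold change of each S100 transcript (rows, most abundant at the top) with the sgRNAs of each target against the control sgRNAs (columns), assigned cells. The values printed in the cells run from -1.003 (S100A8, ATF4) to 0.48 (S100A2, MYC), and most lie within 0.3 of 0.

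The contrasts of PGAM1, CTNNB1, JUN and CTCF sgRNAs with controls played no part in choosing the genes and were tested. All share the same 4 control sgRNAs with each other and with the contrasts above. PGAM1, the phosphoglycerate mutase of glycolysis, was the only one of the 4 with a call. S100A6 stood at 1975, 2269, 2063 and 2126 CPM with the 4 PGAM1 sgRNAs, all below the control values of 2433, 2466, 2556 and 2435 CPM. This was a log2 change of -0.25 ± 0.064 (SE), past the threshold with an edgeR adjusted p = 0.0459 and lower in 4 of 4 sgRNAs. That was 1 of 10 S100 genes called, where edgeR called 0.389% of the 11570 genes. S100P was also below all controls, at 548, 543, 634 and 610.3 CPM against 671, 687, 685 and 692 CPM, but did not pass (log2 -0.23 ± 0.064, edgeR adjusted p = 0.0841). So placed below all controls were 2 of 10 S100 genes and 2.2% of all genes. S100A4 lay at 53.4 ± 14.1 CPM (SD, n = 4) against 66.7 ± 6.1 CPM and did not pass (log2 -0.28, edgeR adjusted p = 0.559). Of the 10 genes, 8 had a fold change below 0, with a median of -0.13 against 0.01 for all genes.

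The S100A6 call with PGAM1 sgRNAs lay close to the threshold. Under the other settings of the assigned cells its log2 fold change ran from -0.38 to -0.21 and never changed sign. The call was lost with DESeq2 (adjusted p = 0.0622), under the looser sgRNA rule (0.135), with mitochondrial UMIs capped at 10% (0.0784), among G1-scored cells (0.327) and without any of the sgRNAs in turn except PGAM1 sgRNA 2 (edgeR adjusted p from 0.0691 to 0.224 without PGAM1 sgRNA 1, 3 or 4 or any 1 control). It was kept under the stricter rule (edgeR adjusted p = 0.00313). G1-scored cells made up 48.6% of cells with PGAM1 sgRNAs and 56.3% with controls, and the part of the cell cycle was not tested. Without the clusters that stand apart, S100A4 was also called (log2 -0.52, edgeR adjusted p = 0.0352), and S100P was called with DESeq2 (adjusted p = 0.0437). In left-out cells, S100A6 was at 2251 and 2525 CPM with 2 PGAM1 sgRNAs, on either side of 2374 and 2418 CPM with 2 controls. S100P was there at 553 and 879 CPM with PGAM1 sgRNAs, on either side of 594 and 662 CPM. The lower levels of the assigned cells were thus not seen in both PGAM1 sgRNAs there.

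With CTNNB1, JUN and CTCF sgRNAs, none of the 10 S100 genes was called by edgeR, where 0.00864%, 0.00864% and 0.0259% of genes were. At an unadjusted p under 0.05 there were 1, 3 and 1 of the 10, against 4.3%, 4.63% and 6.23% of all genes, and DESeq2 called none of them. CTNNB1 encodes beta-catenin, JUN a subunit of AP-1 and CTCF an insulator protein of chromatin loops. S100P with CTNNB1 sgRNAs ranged from 569 over 640.4 to 648 CPM, below all controls as were 0.717% of all genes (log2 -0.12 ± 0.053, edgeR adjusted p = 1). With JUN sgRNAs, S100A6 ranged from 2056 over 2234 to 2398 CPM, below all controls as were 0.415% of all genes (log2 -0.17 ± 0.057, edgeR adjusted p = 0.933). S100A9 was fitted at 0.30 ± 0.11 with JUN and -0.29 ± 0.11 with CTCF (edgeR adjusted p = 1 and 0.777), and the low-level S100A8 at -0.31 ± 0.32 with CTNNB1 (edgeR adjusted p = 1). With the filter on low counts dropped, these 2 shifts of S100A9 were called (edgeR adjusted p = 2.7e-05 and 3.1e-06). Their sizes hardly changed there (0.28 and -0.29), whereas the fitted SE fell to 0.049 for both. The JUN sgRNAs (1402 to 2137 CPM) and the CTCF sgRNAs (591 to 1639 CPM) both overlapped the controls (1472 to 1633 CPM).

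Comparing targets directly avoids the control sgRNAs. Of the 6 pairs among PGAM1, CTNNB1, JUN and CTCF, which were not among the comparisons planned at first, 2 held a called S100 gene, PGAM1 with CTCF and JUN with CTCF. In the other 4 pairs edgeR called 0.83% of genes (PGAM1 with CTNNB1), 0.493% (PGAM1 with JUN), 0.104% (CTNNB1 with JUN) and 0.285% (CTNNB1 with CTCF), and no S100 gene. S100A9 (ENSG00000163220, chromosome 1, 153357854 to 153361023) ranged from 1402 over 1990 to 2137 CPM with the 6 JUN sgRNAs and from 591 over 1326 to 1639 CPM with the 6 CTCF sgRNAs. Only JUN sgRNA 6, at 1402 CPM, fell among the CTCF values, and the other 5 JUN sgRNAs were above every CTCF sgRNA. The log2 difference was 0.59 ± 0.10 (SE; edgeR adjusted p = 0.000535 within the pair and 0.000172 over all 6 pairs), where 0.328% of genes were called. It stayed past the threshold in all 23 alternatives run, with values from 0.48 to 0.69, and was 0.48 without CTCF sgRNA 3, the lowest of the group at 591 CPM. Without the clusters that stand apart, CTCF sgRNA 3 was at 804 CPM, and CTCF sgRNAs 1, 2, 4, 5 and 6 were at 1647, 1162, 1308, 1384 and 1393 CPM. The 4 controls were then at 1472, 1475, 1634 and 1561 CPM. Within 12 clusters with at least 20 cells of both targets, S100A9 was higher with JUN sgRNAs in 11, with a median log2 ratio of 0.43, and lower in cluster 11 (-0.59). S100A9 also differed between JUN and CTNNB1 sgRNAs (CTNNB1 minus JUN -0.42 ± 0.10), which did not pass within its pair (edgeR adjusted p = 0.0707) but did over the 6 pairs (0.0244).

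S100P was lower with PGAM1 than with CTCF sgRNAs by 0.27 ± 0.059 on the log2 scale (edgeR adjusted p = 0.00484 within the pair and 0.00741 over 6 pairs), where 1.07% of genes were called. The 4 PGAM1 sgRNAs lay at 543 to 634 CPM and the 6 CTCF sgRNAs at 664 to 782 CPM, with no overlap. The call was lost in G1-scored cells (-0.15, edgeR adjusted p = 0.61) and with mitochondrial UMIs capped at 10% (-0.34, edgeR adjusted p = 0.0853). G1-scored cells made up 48.6% with PGAM1 and 57.4% with CTCF sgRNAs, and the part of the cell cycle was not tested. Without CTCF sgRNA 1, which held 1 cell with 499 S100P UMIs, the difference was -0.23 (edgeR adjusted p = 0.0244).

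A list of genes chosen as possible partners of S100 proteins was also followed, and no binding was measured. Of 16 partner genes listed, 14 were tested, among them ANXA2 (681 CPM), ANXA1 (480.4 CPM) and EZR (259.8 CPM), while the receptor AGER was at 0.696 CPM. None of the 14 was called against controls for any of the 6 targets, with medians from -0.02 to 0.06. Among pairs of targets, ANXA2, the partner of S100A10, was higher with CTNNB1 than with JUN sgRNAs (log2 0.23 ± 0.046, edgeR adjusted p = 0.00694). EZR was lower with PGAM1 than with CTCF (-0.28, edgeR adjusted p = 0.0104) or CTNNB1 sgRNAs (-0.28, adjusted p = 0.0118), and SRI, a calcium-binding protein of the penta-EF-hand family, was lower with PGAM1 than with CTCF sgRNAs (-0.24, adjusted p = 0.0265). The stretch of chromosome 1 between the first and last S100A gene holds 46 other genes of the matrix. Only CHTOP and SPRR3 were expressed enough to be tested, and neither was called against controls.

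S100 transcripts also differed between the states of the culture. The 10142 cells were clustered without any S100 gene into 17 clusters, which are described here with no test. S100A9 and S100A8 varied most. S100A9 was at 2475 CPM in cluster 4, led by the acute-phase and epithelial defence genes C15orf48, SAA1, PI3 and LCN2, at 2324 CPM in cluster 9, led by IGFBP3, EGLN3 and CA9 and hypoxia-like by its markers, and at 2001 CPM in cluster 1, led by CXCL8 and INHBA. It was at 399 CPM in cluster 2, led by HPGD and ABCC4, at 413 CPM in cluster 12, led by PSCA, BPIFB1 and AGR2, and at 377 CPM in cluster 6, led by HIST1H1D, RRM2 and E2F8, whose cells scored as G2M in 70.1% and as S in 28.9%. Cluster 3, the other state led by replication-dependent histone genes, had 1897 CPM. S100A8 followed the same split, with 43.3, 67.8 and 21.4 CPM in clusters 4, 9 and 1 and 2.14, 2.43 and 3.78 CPM in clusters 2, 12 and 6.

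The other abundant S100 transcripts were steadier. Over the 14 clusters of at least 100 cells that remain without the clusters standing apart, the highest level was 1.48 times the lowest for S100A10, 1.77 times for S100A11, 1.80 times for S100A16, 1.87 times for S100A6 and 2.04 times for S100A14. S100P ran 2.67 times, from 337 CPM in cluster 16 (led by IGFBP5) to 897 CPM in the hypoxia-like cluster 9. The ratios were 6.57 for S100A9 and 31.6 for S100A8. S100A16 was lowest in cluster 9, at 203 CPM, where S100A4 was at 112 CPM against 73.7 CPM in all cells. By cell-cycle score, S100A6 was at 2721 CPM in G1, 2162 CPM in S and 2052 CPM in G2M cells, S100A11 at 2109, 1679.8 and 1672 CPM and S100P at 683, 494 and 548 CPM. Median depth was 10962, 13732 and 14646 UMIs in these phases. CPM is a share of each cell's total, so fewer molecules of a gene and more of others cannot be told apart.

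**Figure D5:**
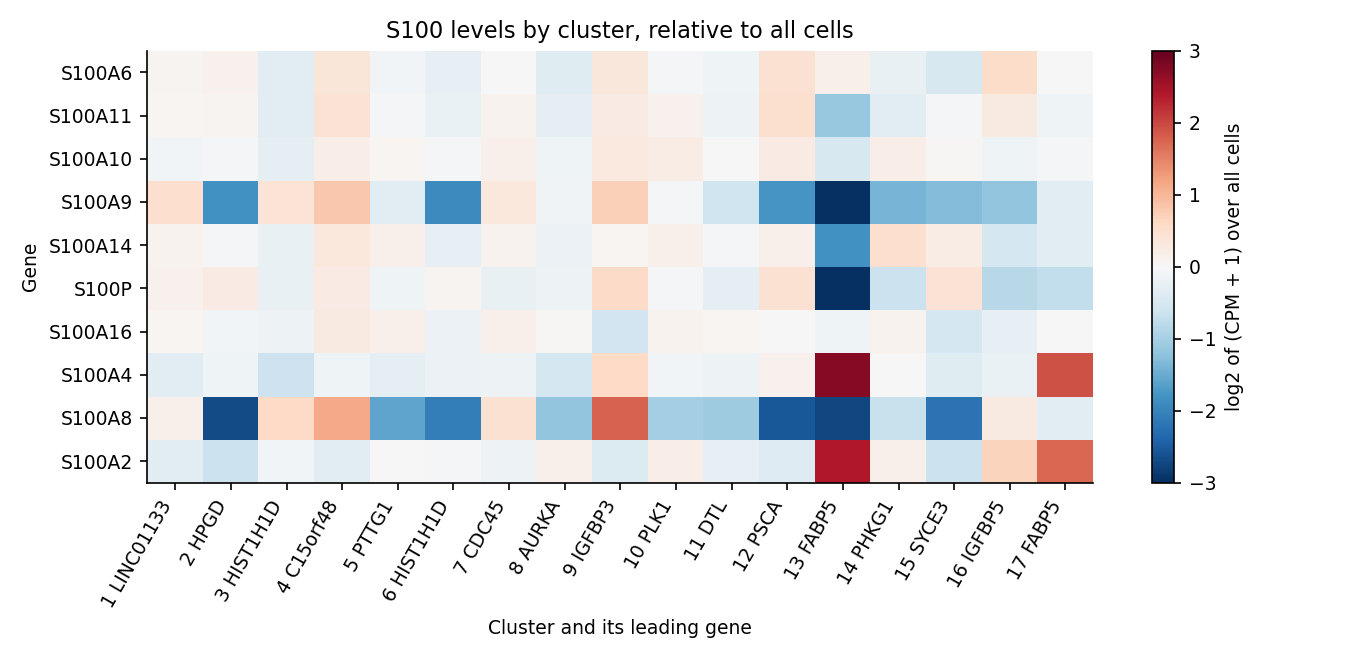
Level of each S100 transcript in each of 17 clusters (columns, with the leading gene) relative to all cells, as the log2 ratio of CPM + 1; colours end at -3 and 3. S100A9 and S100A8 are low together in clusters 2, 6, 12, 13 and 15, and cluster 13 also has low S100P with high S100A4 and S100A2.

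Cluster 13 had a different S100 profile from all others. Its S100P was 37.1 CPM (exact Poisson 95% interval 29.9 to 45.5), its S100A9 66.2 CPM (56.4 to 77.1) and its S100A14 276 CPM. S100A4 reached 496 CPM (469 to 525) and S100A2 75.1 CPM (64.7 to 86.7), against 73.7 and 13.4 CPM in all cells. S100A11 (858 CPM), S100A10 (1141 CPM) and S100A8 (2.02 CPM) were also at their lowest among the 16 clusters of at least 100 cells. S100A6 (2649 CPM) and S100A16 (278 CPM) were close to their level elsewhere. Cluster 17, with a median of 19640 gene UMIs against 8218 in cluster 13, lay between cluster 13 and the level of all cells for S100P (361 CPM) and S100A4 (279 CPM). Only 5.84% of cluster 13 cells held an assigned sgRNA, so these cells hardly enter the comparisons of targets. Cluster 15 had S100P at 812 CPM, S100A9 at 579 CPM and the lowest S100A6 of the 16 clusters of at least 100 cells, 1695 CPM.

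Across single cells, the gene outside the family most like S100A9 was LCN2, the siderophore-binding lipocalin (Pearson r = 0.728 over 10142 cells of log-scaled counts), followed by AKR1B1 (0.565) and the protease inhibitor SLPI (0.487). These values were 0.724, 0.551 and 0.461 without the clusters standing apart. S100A8 was most like SAA1 (0.41), SAA2 (0.382) and PI3 (0.279). S100A6 was most like KRT19 (0.334), LGALS1 (0.274) and TMSB10 (0.248). The genes most like S100P were AKR1C3 (0.36), KRT7 (0.358) and CSTB (0.33), which fell to 0.188, 0.0981 and 0.192 without the clusters standing apart, so that likeness rested in part on those cells. The same held for S100A4 and S100A2, whose most similar gene, AKAP12, went from 0.258 and 0.205 to -0.013 and 0.0377. For S100A11 the highest were KRT7 (0.393, and 0.254 without those clusters) and KRT19 (0.383, and 0.347), for S100A10 GAPDH (0.32), for S100A14 KRT7 (0.379, and 0.12 without the clusters standing apart) and for S100A16 KRT18 (0.225). Within the family the highest values were 0.383 for S100A6 with S100A11, 0.359 for S100A10 with S100A11 and 0.323 for S100A8 with S100A9. The cells of 1 library share depth, and these correlations are a description with no test.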

How the data were processed

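The deposited values are counts: whole-number UMIs per feature and cell barcode, which per the file headers come from Cell Ranger 6.1.2. The genome build is hg38 per the submitters' processing notes. The sources used here give neither alignment settings nor doublet removal.

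Cells needed at least 1000 gene UMIs, 500 genes and at most 20% mitochondrial UMIs. A cell was assigned to its leading sgRNA at 5 or more UMIs and 80% of its sgRNA UMIs, which also served as the guard against doublets. Counts were summed per sgRNA with at least 20 cells and fitted by the quasi-likelihood method of edgeR 4.0.16 under R 4.3.3, after TMM scaling and that tool's low-count filter, with Benjamini-Hochberg adjustment over all genes of a contrast. DESeq2 1.42.0 was an alternative, and the fit was tested on simulated data. Standard errors (SE) were computed from the fitted log2 fold change and its F statistic. The common coefficient of variation between sgRNAs, the square root of the fitted dispersion, was 4.64% (6.49% in left-out cells). Clusters came from scanpy 1.11.5 on 2000 variable genes without S100 genes, 30 components and Leiden resolution 1.0. Positions and promoters are RefSeq's on GRCh38.p14, and all 10 genes matched by symbol.

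The members, the lists and the rule for named genes were chosen with earlier results of these data known. Named genes were the 10 members, the targets, S100 genes that were tested, partners or neighbours that passed a test, and the 3 genes most like each member over cells, among genes seen in at least 10% of cells. Pair contrasts between targets were added later.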

Additional observations from a re-analysis of the deposited data

Results flagged for a closer look

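For each of the 10 S100 genes, the highest and the lowest sgRNA were set against the rest in 6 groups of 4 to 6 sgRNAs, 60 groups in all. In 5 of them 1 sgRNA lay far from the others, and chance alone flags about 1 in 20 groups at the level used (Dixon's 95% critical value). S100A6 in CTCF sgRNA 3 was the most extreme, at 1527 CPM against 2346 CPM for the next lowest, and 20 of its 48 cells lay in cluster 15. S100P in CTCF sgRNA 1 was at 782 CPM against 701 CPM for the next highest, and 674 CPM without the 1 cell that held 499 S100P UMIs, a value computed after that cell was seen. CTNNB1 sgRNA 6 was flagged for its low S100A4 (43.8 CPM against 65.4 CPM for the next) and its high S100A9 (1833 CPM against 1477 CPM). S100A8 in ATF4 sgRNA 5 was at 24.4 CPM against 10.97 CPM for the next.

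Among pairs of targets, the difference itself passed the test for S100A9 between JUN and CTCF sgRNAs (log2 0.59) and for S100P between PGAM1 and CTCF sgRNAs (log2 -0.27).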

How the results depend on the processing

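The fitted S100P fold change with ATF4 sgRNAs ran from -0.70 to -0.61 on the log2 scale over 19 alternatives, and each left it within the spread of the ATF4 sgRNAs. The S100A11 fold change with MYC sgRNAs stayed above 0 in all 14 alternatives, but its spread over 2 sgRNAs was small. It moved from 0.40 to 0.43 with DESeq2 or its size factors. It was 0.35 under the looser sgRNA rule or without the low-count filter. The values of 0.34 in G1-scored cells and 0.33 under the stricter rule rested on 1 MYC sgRNA, sgRNA 4. No MYC sgRNA had enough cells to be fitted with mitochondrial UMIs capped at 10%. Leaving out 1 sgRNA gave 0.38 to 0.42, and leaving out a MYC sgRNA left only 1 of them. In left-out cells, S100P with ATF4 sgRNAs passed without the low-count filter (-0.61), with target and controls alone (-0.63) and without the clusters that stand apart (-0.62). At 3 to 4 sgRNA UMIs it was -0.66, with only 1 control sgRNA. With at most 10% mitochondrial UMIs it was -0.35, with 1 ATF4 and 1 control sgRNA. Leaving out 1 sgRNA gave -0.75 to -0.47. The pooled S100A11 ratio with MYC there ran from 0.15 to 0.46 when 1 sgRNA was left out, and the value fitted over sgRNAs with at least 10 cells was 0.13 (edgeR adjusted p = 0.835).

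The S100 calls with PGAM1 sgRNAs went from 1 to 0 in G1-scored cells, with mitochondrial UMIs capped at 10% and under the looser rule, to 2 without the low-count filter, with target and controls alone and without the clusters that stand apart, and ran from 0 to 1 when 1 sgRNA was left out. JUN went from 0 to 1 without the filter and with target and controls alone, and CTCF from 0 to 1 without the filter, each time for S100A9. CTNNB1 stayed at 0 in all 19. Over all genes and alternatives, calls ran from 64 to 308 for ATF4 (203 as reported), 17 to 91 for PGAM1 (45), 0 to 6 for CTNNB1 (1), 0 to 15 for JUN (1) and 0 to 37 for CTCF (3). For MYC (32 as reported) no range is given, because some alternatives held only 1 MYC sgRNA.

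Across clusters, the ratio of highest to lowest level was 37.4 for S100A9, 24.2 for S100P and 3.05 for S100A11 with cluster 13 included. It was 5.97, 6.09 and 2.21 at resolution 0.5, 6.64, 2.31 and 1.74 with at most 10% mitochondrial UMIs, and 6.57, 2.67 and 1.77 without the clusters that stand apart, and S100A9 reached 57.7 at resolution 1.5. The causes were not tested. No paired analysis was possible because every sgRNA is its own construct and equal numbers in different targets pair nothing. With at least 10 left-out cells per sgRNA, S100P with ATF4 gave -0.50 (edgeR adjusted p = 0.11). The sums of MYC and of left-out cells, as low as 267726 and 218610 UMIs, limit what could be detected there, and S100A2, S100A4 and S100A8 have too few counts per sgRNA for small changes to be seen.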

Other observations

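A single cell stood out for S100P. It held 499 S100P UMIs, or 2.37% of its 21053 gene UMIs, against 188 UMIs in the next cell and a median of 7 UMIs per cell. It was assigned to CTCF sgRNA 1, scored G2M and lay in cluster 6, and its 7 S100A9 and 37 S100A11 UMIs were ordinary. The next cells by S100P count, with 188 and 107 UMIs, held no assigned sgRNA.

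CTCF sgRNA 3 had 20 of its 48 assigned cells in cluster 15. Its remaining 28 cells had 1555 CPM of S100A6, against 2346 to 2511 CPM in the other CTCF sgRNAs without the clusters standing apart. Of these 28 cells 14.3% scored as G1, against 51.9% to 61.3% in the other CTCF sgRNAs. The part of the cell cycle in this level was not tested.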
